A study of Homo sapiens with 6 samples.

Results

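Mitosis and kinetochore genes encode the kinases, checkpoint proteins, kinetochore subunits, condensins and spindle proteins that carry a cell from G2 through division. The 56 genes described here were chosen by name from this functional class, and the rule used no measured value. The choice was made with earlier results of these data known. Kinesins with KIF names were left out, while the motor protein gene CENPE was kept. All 56 were among the 14959 genes measured. RNA was sequenced from UM-SCC1, a long-established human line of head and neck squamous cell carcinoma (HNSCC), collected 48 h after transfection. In 3 libraries, called mimic libraries, the cells had received miR-204-5p mimics, synthetic RNAs that enter cells and act as the mature miRNA does, and in 3 others, called control libraries or controls, they had received control mimics. The libraries of a group are labelled as replicates 1 to 3, and all were made from the same line, so the results speak for 1 cell line. Levels are FPKM, fragments per kilobase of transcript and per 1e6 mapped fragments, a scale on which genes of different length can be compared.

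Entry into mitosis is driven by CDK1 with its cyclins, which are switched on by CDC25 phosphatases and supported by the Polo-like and Aurora kinases. Kinetochores assemble on centromeres, catch spindle microtubules, and hold back the anaphase-promoting complex (APC/C) through the spindle checkpoint until every chromosome is attached. Most of these genes are transcribed in waves that peak in G2 and M, under the DREAM complex, the MuvB core with MYBL2, and FOXM1, and their mRNA levels in growing tumor lines are high. A miRNA lowers mRNAs mainly by pairing its seed, bases 2 to 8, with matching sites in 3' untranslated regions (UTRs).

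The inferred depth was 13.1 to 15.9 M (1e6) fragments in mimic libraries and 13.9 to 16.4 M in controls. Spearman correlations of FPKM over the 56 genes were 0.975 to 0.985 between libraries of 1 group and 0.899 to 0.936 between groups. The squamous epithelial markers KRT5, KRT6A, KRT14, KRT17, TP63, CDH1, EPCAM and DSP were all measured, and their summed level was 588 to 684 FPKM in mimic libraries and 791 to 814 FPKM in controls. Of these 8 markers, 5 were lower and 2 higher in mimic libraries. Markers of other cell types were close to 0 apart from CD14, whose level was 13.5, 11.9 and 11.8 FPKM in mimic libraries and 15.8, 16.6 and 16.3 FPKM in controls. The 4 leukocyte markers summed to 12.3 to 14.01 FPKM in mimic libraries and 16.5 to 17.4 FPKM in controls, the 3 endothelial markers to 0.590 to 0.767 and 0.443 to 0.502 FPKM, and 3 measured fibroblast markers (PDGFRB, COL1A2, LUM) to 0.960 to 1.07 and 0.508 to 0.553 FPKM. DCN, also on that list, was not analysed here. CDH5 and LUM were listed at 0 in at least 1 library. The part of these marker levels in the results below was not tested.

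The 56 mRNAs did not move as a block. With miR-204-5p mimics, 9 were lower, 19 were higher and 28 did not pass the test (limma on log2(FPKM + 1), Benjamini-Hochberg adjusted p under 0.05 over 14959 genes). The share called was 50%, where 40.8% of all genes were called. Lower calls made up 16.1% of the 56, beside 16.8% of all genes, and higher calls 33.9%, beside 23.9% of all genes. The median log2 fold change (miR-204-5p mimics minus control mimics) was 0.11 over the 56 and 0.032 over all genes. The median over the 56 was 0.063 with FPKM scaled to equal sums and 0.055 with equal medians, beside 0.0088 and 0.0044 over all genes. The 3 libraries of each group did not overlap for 32 of the 56, 11 lower and 21 higher, and for 53.6% of all genes, 22.7% lower and 30.9% higher. The lower mRNAs were CCNA2, FOXM1, PLK1, UBE2C, AURKB, CDCA8, CDCA5, NCAPD2 and TOP2A. The higher ones were CDK1, CCNB1, BUB1B, MAD2L1, TTK, ESPL1, CDCA3, CENPH, CENPK, NDC80, NUF2, SPC25, SMC2, SMC4, NCAPG, NCAPH, DLGAP5, HMMR and ANLN. Most changes were modest. The median absolute log2 fold change among the 28 called was 0.37, the same to this precision as among all called genes, and 2 of the 28 exceeded 1, CDCA8 and CENPH. In RNA from whole cultures, a change in the share of cells in mitosis and a change in mRNA per mitotic cell cannot be told apart.

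**Figure D1:**
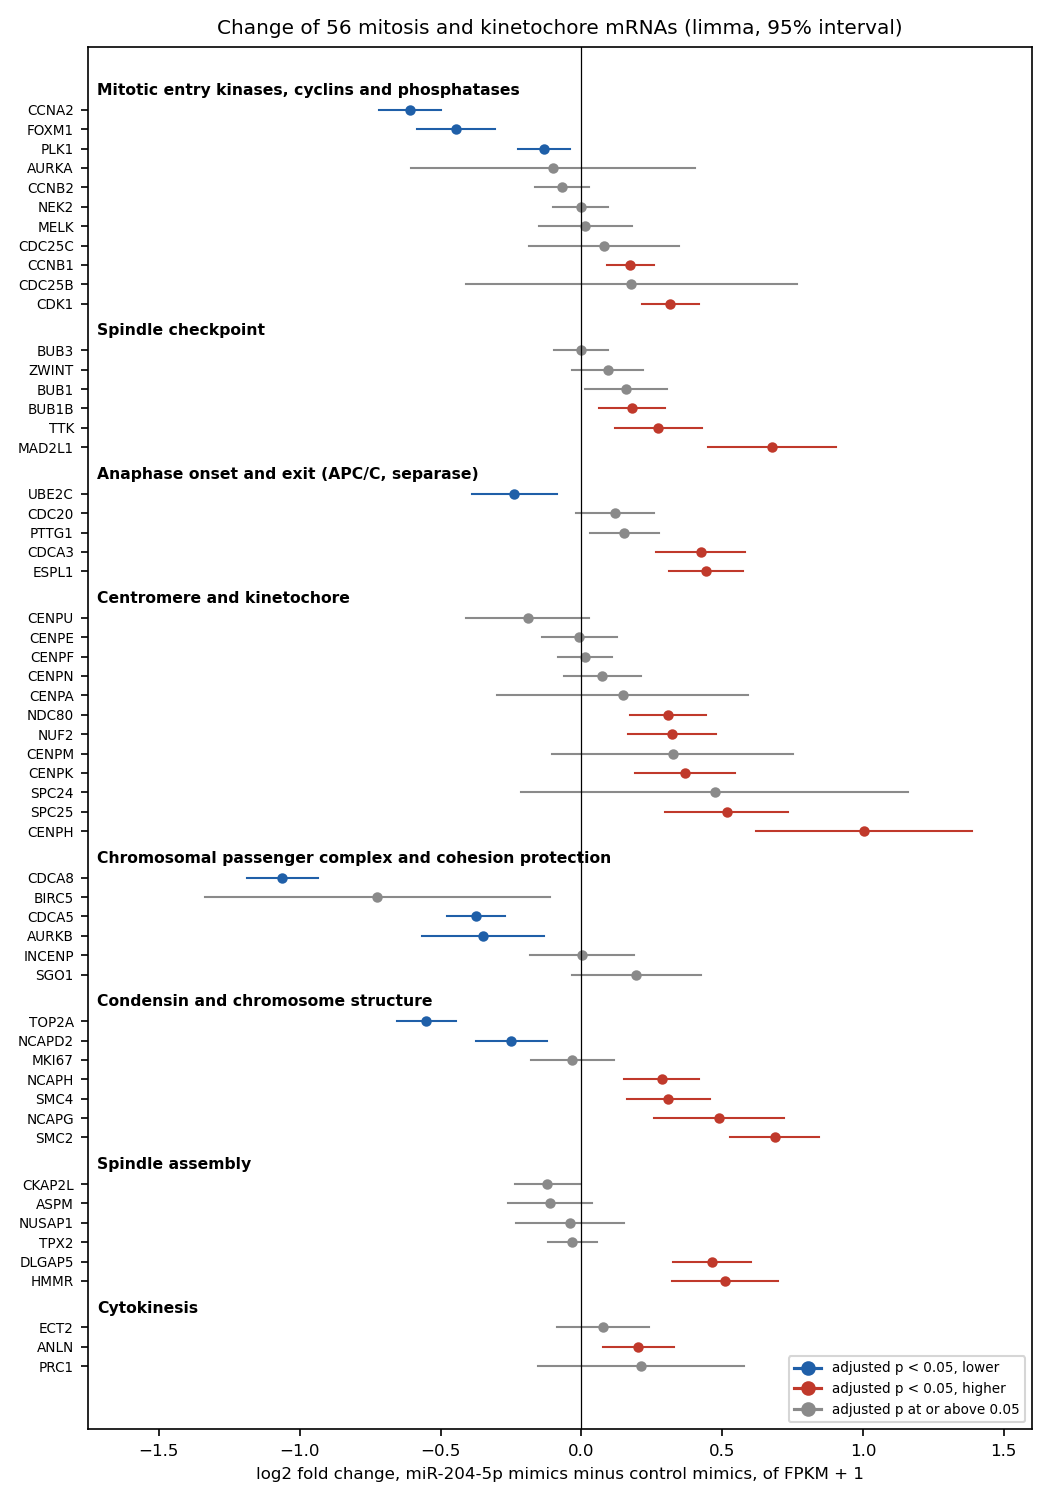
Log2 fold change of FPKM + 1 (horizontal axis, miR-204-5p mimics minus control mimics, 3 libraries each) for the 56 genes grouped by role, points with 95% intervals, coloured by the limma call. The chromosomal passenger group holds 3 lower calls, the kinetochore group 5 higher calls, and the entry and condensin groups hold calls in both directions.

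The sum of the 56 genes stayed in a narrow range while single genes moved. It was 1585, 1650 and 1602 FPKM in mimic libraries and 1660, 1580 and 1635 FPKM in controls, and the groups overlapped. In each library these genes took 0.543% to 0.600% of all FPKM. SGO1 was the lowest of the 56 in 5 of 6 libraries and SPC24 in control replicate 3, and TPX2 was the highest in all 6.

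The mature miRNA is shown with its seed in capitals, together with miR-211-5p, whose seed is the same (RefSeq, GRCh38.p14). The miR-204-5p sequence lies at chr9:70810031-70810052 on the minus strand.
hsa-miR-204-5p: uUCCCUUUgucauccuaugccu
hsa-miR-211-5p: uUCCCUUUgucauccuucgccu
Sites were sought along the longest 3' UTR annotated for a gene as AAAGGGAA (8mer), AAAGGGA (7mer-m8, opposite bases 2 to 8), AAGGGAA (7mer-A1, opposite bases 2 to 7 and followed by an A) and AAGGGA (6mer), on the transcribed strand, each position counted once under its longest class. A match of at least 7 bases was present in 10 of the 56 genes (17.9%) and in 26.6% of all genes.

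Among those 10, 3 were lower (CCNA2, FOXM1, CDCA8), 2 were higher (SMC2, DLGAP5) and 5 did not pass the test (CDC25B, CENPA, CENPE, MKI67, CKAP2L). Of all genes with a match of at least 7 bases, 27.0% were lower, beside 3 of these 10. The 3' UTR windows of the lower and higher mRNAs, 30 bases each with the match in capitals, are set out to show the matches found in mRNAs of either direction (GRCh38).
CDCA8 site 1: catgttcctctAAGGGAAttcaggaattca
CDCA8 site 2: gaaatttggatAAGGGAActgtagggccca
CCNA2: tctctaatgaaAAAGGGAtgtctttttgtt
FOXM1: agttttgatagAAGGGAAgacctgcagtgc
SMC2 site 1: actggaccaacAAAGGGAAcacatataaag
SMC2 site 2: ctttccagttcAAAGGGAtgaaattccttt
DLGAP5: tactctttctcAAGGGAAgtggggatattt
The matches in CDCA8 lie in exon 10 at chr1:37708485-37708491 and chr1:37709168-37709174, that of CCNA2 in exon 8 at chr4:121816556-121816562, and that of FOXM1 in exon 8 at chr12:2858153-2858159. Those of SMC2 lie in exon 25 at chr9:104139757-104139764 and chr9:104140299-104140305, and that of DLGAP5 in exon 20 at chr14:55148183-55148189. SMC2 carried the only 8mer among the 56 genes, along with a 7mer-m8, and its mRNA was higher in each mimic library than in any control. Over all genes, 33.5% of those with an 8mer were called lower, against 12.5% of those with no match. A 6mer was the longest match in BUB3, MAD2L1, CDCA3, AURKB and SMC4, of which AURKB was lower, MAD2L1, CDCA3 and SMC4 were higher and BUB3 did not pass the test. The remaining 41 genes had no match, with 5 lower, 14 higher and 22 not passing the test.

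Among the 11 mitotic entry genes, cyclin A2 and FOXM1 were reduced while cyclin B1 and CDK1 were increased. CCNA2, the cyclin of S phase and early mitosis, was measured at 22.8, 24.3 and 22.5 FPKM in mimic libraries and 36.7, 34.4 and 36.5 FPKM in controls. All 3 mimic libraries lay below all 3 controls, and mean FPKM was 1.55-fold lower (log2 fold change -0.61 ± 0.046 (SE), adjusted p = 0.000211). FOXM1, a transcription factor that drives G2 and M phase genes, was measured at 10.8, 10.6 and 10.2 FPKM in mimic libraries and 15.8, 13.98 and 14.4 FPKM in controls. The groups did not overlap, and the log2 fold change was -0.45 ± 0.058 (SE, adjusted p = 0.00148). CCNB1, the cyclin that partners CDK1 at mitotic entry and the most abundant mRNA of this role group, stood at 86.4, 85.7 and 85.2 FPKM in mimic libraries and 75.3, 73.95 and 78.5 FPKM in controls. Its libraries did not overlap either, with a small rise of 0.17 ± 0.035 (SE, log2 fold change, adjusted p = 0.00845). CDK1 itself, the kinase that starts mitosis, stood at 59.7, 61.5 and 57.5 FPKM in mimic libraries and 47.2, 46.3 and 49.5 FPKM in controls. It rose by 0.32 ± 0.042 (SE, log2 fold change, adjusted p = 0.00172), with no overlap.

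The ratio of the cyclins was also compared. CCNA2 FPKM per CCNB1 FPKM within a library was 0.264, 0.283 and 0.264 in mimic libraries and 0.487, 0.466 and 0.465 in controls (0.270 ± 0.0111 and 0.473 ± 0.0127, SD, n = 3). The groups did not overlap, and the exact permutation test gave p = 0.1, the smallest p that 3 against 3 libraries allow. This ratio was chosen after the values had been seen. CCNA2 was below and CCNB1 above every control in each mimic library, so the ratio had to separate. Its test therefore adds no evidence to the values of the 2 genes. PLK1, the Polo-like kinase of mitotic entry and spindle formation, was measured at 49.6, 52.98 and 49.9 FPKM in mimic libraries and 56.2, 56.3 and 54.9 FPKM in controls. Its call at -0.13 ± 0.039 (SE, log2 fold change, adjusted p = 0.0332) was lost when most single libraries were left out. The adjusted p was 0.0854 without mimic replicate 1, 0.0845 without replicate 3, and 0.0908, 0.0973 and 0.0580 without control replicates 1, 2 and 3.

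The other 6 entry genes did not pass the test. CCNB2, a B-type cyclin, NEK2, a centrosome kinase, and MELK, a kinase of G2 and M phase, had log2 fold changes of -0.069, -0.0017 and 0.014, with 95% intervals of -0.17 to 0.027, -0.099 to 0.096 and -0.15 to 0.18. CDC25B, a phosphatase that activates CDK1, varied from library to library, at 26.4, 44.5 and 45.1 FPKM in mimic libraries and 43.3, 29.2 and 28.8 FPKM in controls. Replicate 1 was the odd library in each group, low among mimic libraries and high among controls, and the interval ran from -0.41 to 0.76. AURKA, the spindle pole Aurora kinase, was as uneven, at 40.2, 28.4 and 34.9 (mimic) and 42.6, 26.6 and 43.4 (control) FPKM. CDC25C, another CDK1-activating phosphatase, had a log2 fold change of 0.081 ± 0.11 (SE). Several of these genes share exonic bases with a neighbor, and whether the authors' quantification used strand is not given in the sources used here. CCNA2 overlaps EXOSC9 on the opposite strand by 254 bases (EXOSC9 log2 fold change -0.11, adjusted p = 0.211), FOXM1 overlaps ITFG2 by 781 (0.0087, adjusted p = 0.935), PLK1 overlaps ERN2 by 42 (-0.024, adjusted p = 0.609) and CDC25C overlaps FAM53C by 293 (-0.56, adjusted p = 0.00102).

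**Figure D2:**
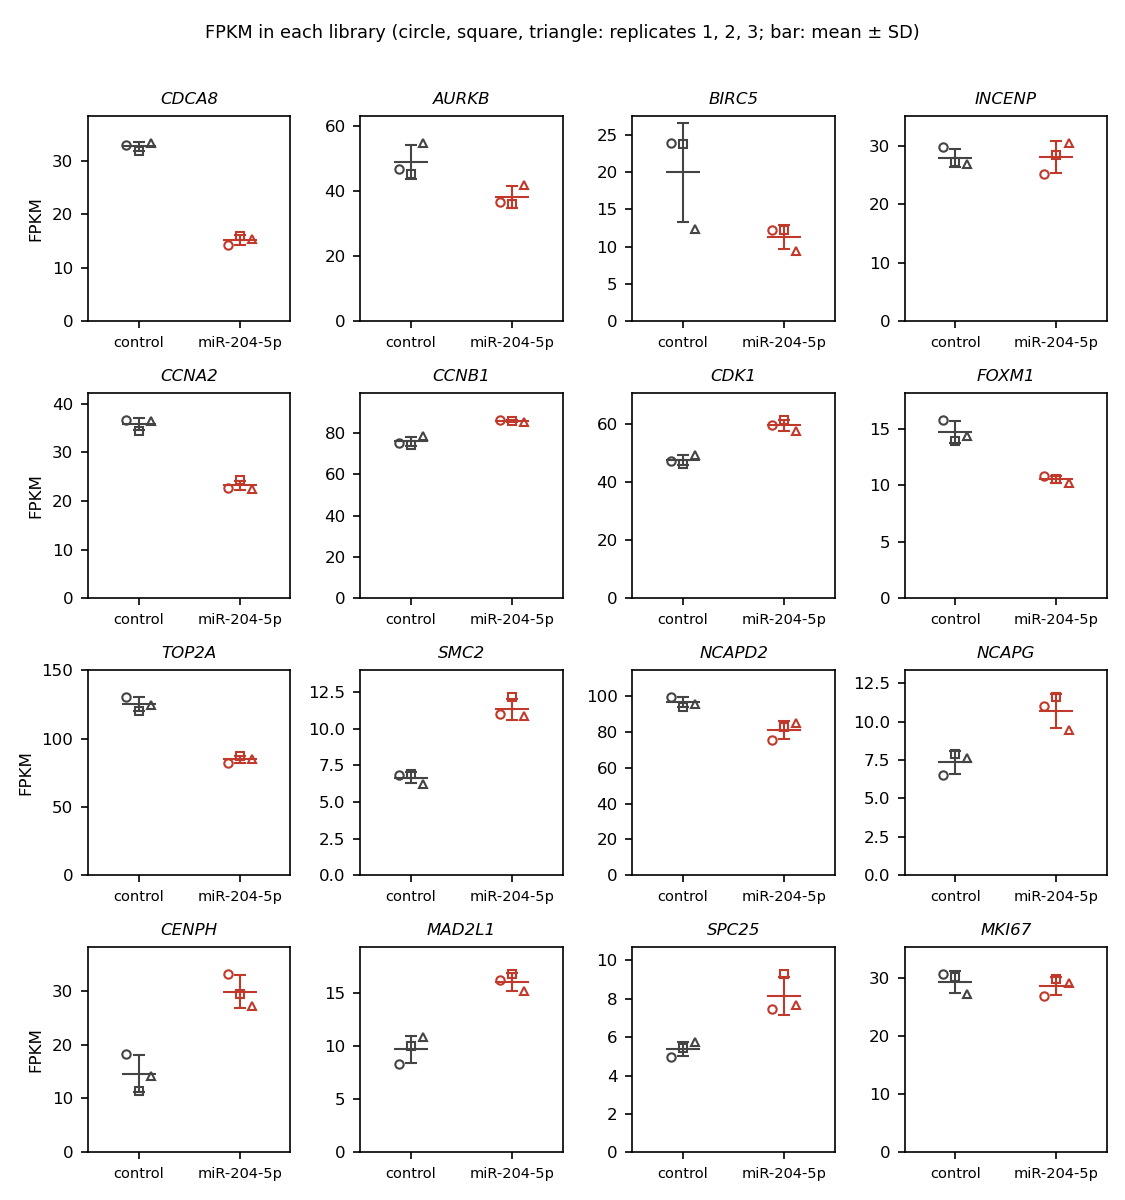
FPKM (vertical axis, from 0) of 16 of the genes in each library, control mimics in grey and miR-204-5p mimics in red, symbols for replicates 1 to 3 and bars for mean ± SD. The groups separate for CDCA8, CCNA2, TOP2A, SMC2 and CENPH, while INCENP and MKI67 overlap and control replicate 3 of BIRC5 lies beside the mimic libraries.

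Of 6 spindle checkpoint mRNAs, 3 were higher and 0 lower by limma (4 higher and 0 lower at an unadjusted p under 0.05). Over all genes, 23.9% were higher and 16.8% lower by limma, and 4290 and 3105 of 14959 at an unadjusted p under 0.05. MAD2L1 encodes MAD2, which binds CDC20 and holds the APC/C inactive. It was measured at 16.2, 16.7 and 15.1 FPKM in mimic libraries and 8.29, 9.98 and 10.8 FPKM in controls. Every mimic library was above every control, and mean FPKM was 1.65-fold higher (log2 fold change 0.68 ± 0.094 (SE), adjusted p = 0.00200). TTK, the MPS1 kinase that starts checkpoint signaling at kinetochores, stood at 9.99, 10.6 and 9.79 FPKM in mimic libraries and 8.46, 7.57 and 8.64 FPKM in controls. It rose by 0.27 ± 0.064 (SE, log2 fold change, adjusted p = 0.0153), and the adjusted p was 0.0530 without mimic replicate 2. BUB1B, which encodes BUBR1 of the mitotic checkpoint complex, stood at 20.7, 22.3 and 22.6 FPKM in mimic libraries and 18.8, 18.9 and 19.9 FPKM in controls. The rise was 0.18 ± 0.049 (SE, log2 fold change, adjusted p = 0.0269). That call was lost without mimic replicate 2 (adjusted p = 0.0818), without replicate 3 (0.0753) and without control replicate 1 (0.0805) or 2 (0.0812), and under scaling of FPKM to equal sums (0.0909) or medians (0.0698). BUB1B shares 457 exonic bases on the same strand with the readthrough gene BUB1B-PAK6, whose mean was 0.0935 and 0.0642 FPKM with a log2 fold change of 0.040 (adjusted p = 0.515).

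The libraries did not overlap for the checkpoint kinase BUB1, at 26.5, 25.5 and 27.7 (mimic) and 24.7, 21.9 and 24.6 (control) FPKM, and it did not pass the test (log2 fold change 0.16 ± 0.060 (SE), adjusted p = 0.0785). BUB3, which brings BUB1 and BUBR1 to kinetochores, was at 29.4, 28.7 and 28.00 FPKM in mimic libraries and 29.7, 28.1 and 28.4 FPKM in controls. The libraries overlapped, with an interval of -0.096 to 0.096. ZWINT, a kinetochore partner of the KNL1 complex, had a log2 fold change of 0.094 (-0.033 to 0.22).

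At anaphase onset, 2 of 5 mRNAs were higher and 1 was lower, beside 23.9% and 16.8% of all genes. ESPL1 encodes separase, the protease that cuts cohesin. Its levels were 10.8, 11.3 and 11.7 FPKM in mimic libraries and 8.31, 8.19 and 7.61 FPKM in controls, a rise of 0.44 ± 0.055 (SE, log2 fold change, adjusted p = 0.00126) with no overlap. The transcript listed for ESPL1 has 10.7% of the length of its longest annotated transcript. CDCA3, an adaptor that promotes mitotic entry through loss of WEE1, rose similarly, from 10.4, 9.61 and 9.68 FPKM to 14.4, 13.98 and 12.5 FPKM (0.42 ± 0.065 (SE), adjusted p = 0.00298). It shares 549 exonic bases on the opposite strand with GNB3, whose log2 fold change was 0.082 (adjusted p = 0.443). UBE2C, the ubiquitin-conjugating enzyme that works with the APC/C, moved the other way, at 58.2, 63.4 and 68.7 FPKM in mimic libraries and 75.4, 72.6 and 76.6 FPKM in controls. Its libraries did not overlap and the log2 fold change was -0.24 ± 0.063 (SE, adjusted p = 0.0242). That call was lost without mimic replicate 2 (adjusted p = 0.0664) and without control replicate 1 (0.0689) or 3 (0.0723).

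CDC20, the APC/C activator and the most abundant mRNA of this role group, stood at 86.8, 87.9 and 96.2 FPKM in mimic libraries and 78.2, 83.8 and 87.2 FPKM in controls. These ranges overlapped, and the log2 fold change was 0.12 ± 0.058 (SE, adjusted p = 0.151). PTTG1, which encodes securin, the inhibitor of separase, was at 30.9, 30.96 and 29.3 (mimic) and 26.1, 26.6 and 29.02 (control) FPKM. Its adjusted p was 0.0543 over all libraries, 0.0237 without control replicate 3 and 0.0498 once genes under a mean FPKM of 1 were left out. No other fit with a library left out passed PTTG1, and its adjusted p there reached 0.150.

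Kinetochore mRNAs that passed the test were all higher. Of 12, 5 were higher (41.7%) and 0 lower by limma, beside 23.9% and 16.8% of all genes. Counts of the 12 were the same at an unadjusted p under 0.05. Their median log2 fold change was 0.31, beside 0.032 over all genes. A positive value was found in 10 of 12, and in 8364 of all 14959 genes. CENPH, a subunit of the constitutive centromere-associated network, was measured at 33.1, 29.3 and 27.1 FPKM in mimic libraries and 18.2, 11.4 and 14.1 FPKM in controls. It was the most abundant mRNA of this role group in mimic libraries. Controls spread widely, yet no library overlapped, and mean FPKM was 2.05-fold higher (log2 fold change 1.00 ± 0.16 (SE), adjusted p = 0.00335). CENPK, its partner subunit, stood at 5.19, 5.56 and 5.26 FPKM in mimic libraries and 3.83, 3.59 and 4.34 FPKM in controls, a rise of 0.37 ± 0.074 (SE, adjusted p = 0.00853).

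The NDC80 complex makes the direct link between kinetochore and microtubule, and has 4 subunits. NDC80 stood at 15.1, 14.9 and 13.98 FPKM in mimic libraries and 11.8, 10.98 and 12.2 FPKM in controls, and rose by 0.31 ± 0.056 (SE, log2 fold change, adjusted p = 0.00598). NUF2 stood at 19.5, 18.7 and 17.3 (mimic) and 14.3, 13.9 and 15.7 (control) FPKM, a rise of 0.32 ± 0.066 (adjusted p = 0.00896). SPC25 stood at 7.48, 9.28 and 7.69 (mimic) and 4.99, 5.41 and 5.75 (control) FPKM, a rise of 0.52 ± 0.091 (adjusted p = 0.00523). For these 3 subunits every mimic library was above every control, as in 30.9% of all genes. SPC24, the partner of SPC25, stood at 6.85, 9.00 and 7.51 (mimic) and 7.22, 6.77 and 2.91 (control) FPKM and did not pass the test (log2 fold change 0.47 ± 0.29, adjusted p = 0.237). Control replicate 3 was far below the other controls for SPC24, which was also the gene with the fewest inferred fragments in any library, 30.2. Fragments were inferred with the length of the listed transcript, for SPC24 27.3% of the longest annotated.

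CENPA, the centromeric histone variant, and CENPM, another subunit of the centromere-associated network, also varied between libraries, with log2 fold changes of 0.15 ± 0.19 and 0.32 ± 0.18 (SE). For the motor protein gene CENPE and for CENPF, a large outer kinetochore protein, the intervals were -0.14 to 0.13 and -0.082 to 0.11. CENPN, which binds CENPA nucleosomes, was at 0.074 (-0.063 to 0.21), and CENPU, which recruits PLK1 to centromeres, at -0.19 (-0.41 to 0.026). Beside these, CENPA shares 138 exonic bases on the same strand with SLC35F6 (log2 fold change 0.096, adjusted p = 0.289), CENPN shares 457 on the opposite strand with CMC2 (0.37, adjusted p = 0.00695) and 261 with AC092718.8 (0.0019, adjusted p = 0.983), and CENPU shares 346 with PRIMPOL (0.46, adjusted p = 0.00737).

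The chromosomal passenger complex, made of the kinase AURKB and the targeting subunits INCENP, survivin and borealin, changed unevenly. With the cohesin protectors it forms a group of 6 mRNAs, of which 3 were lower and 0 higher by limma (4 and 0 at an unadjusted p under 0.05). Over all genes, 16.8% were lower and 23.9% higher by limma. CDCA8, which encodes borealin, had the lowest log2 fold change of the 56 genes. It was measured at 14.2, 16.04 and 15.4 FPKM in mimic libraries and 33.03, 31.9 and 33.5 FPKM in controls. Mean FPKM was 2.16-fold lower, with little spread within a group (log2 fold change -1.06 ± 0.053 (SE), adjusted p = 6.74e-05). AURKB, the most abundant mRNA of the role group, stood at 36.4, 35.9 and 41.9 FPKM in mimic libraries and 46.7, 45.03 and 54.8 FPKM in controls. The libraries did not overlap and the log2 fold change was -0.35 ± 0.091 (SE, adjusted p = 0.0223), but the adjusted p was 0.0701 without mimic replicate 1 and 0.0749 without replicate 2.

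BIRC5 encodes survivin, which is also known as an inhibitor of apoptosis. It was at 12.2, 12.3 and 9.37 FPKM in mimic libraries and 23.96, 23.7 and 12.3 FPKM in controls. Control replicate 3 was close to the mimic libraries, and the log2 fold change of -0.72 ± 0.25 (SE) did not pass the test (adjusted p = 0.0621). Without control replicate 3 the log2 fold change was -1.02 (adjusted p = 0.00310). No other fit with a library left out passed BIRC5, and its adjusted p there reached 0.169. INCENP, the scaffold of the complex, stood at 25.2, 28.5 and 30.5 FPKM in mimic libraries and 29.8, 27.2 and 26.9 FPKM in controls, with overlap and an interval of -0.18 to 0.19. Per INCENP within a library, CDCA8 was at 0.563, 0.563 and 0.504 in mimic libraries and 1.11, 1.17 and 1.24 in controls. AURKB per INCENP was 1.36 ± 0.0934 in mimic libraries and 1.75 ± 0.247 in controls (SD, n = 3). Neither ratio overlapped between groups, each with an exact permutation p = 0.1, the smallest possible, and both were chosen after the values had been seen. INCENP differed less between any libraries than CDCA8 did between the groups, so the CDCA8 ratio had to separate. Its test therefore adds no evidence to the values of CDCA8.

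CDCA5 encodes sororin, which keeps cohesin on sister chromatids. It stood at 16.1, 15.3 and 16.4 FPKM in mimic libraries and 20.6, 21.1 and 21.1 FPKM in controls, and fell by 0.37 on the log2 scale (SE 0.04, adjusted p = 0.000926). SGO1, the shugoshin that shields centromeric cohesin, was at 3.72, 4.22 and 3.83 (mimic) and 3.81, 2.85 and 3.28 (control) FPKM, with an interval of -0.035 to 0.42.

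Within condensin I, the ring that compacts mitotic chromosomes, 4 subunits were higher and the fifth was lower. By the same limma test, 23.9% of all genes were higher and 16.8% lower. SMC2, 1 of the ATPase arms of the ring, was measured at 10.98, 12.2 and 10.9 FPKM in mimic libraries and 6.87, 6.91 and 6.23 FPKM in controls. Groups were well apart, with mean FPKM 1.70-fold higher (log2 fold change 0.69 ± 0.065 (SE), adjusted p = 0.000468). SMC4, the other ATPase arm, stood at 32.2, 37.2 and 32.7 FPKM in mimic libraries and 26.9, 26.8 and 28.1 FPKM in controls, a rise of 0.31 ± 0.061 (adjusted p = 0.00814). NCAPG, a HEAT-repeat subunit, stood at 11.04, 11.6 and 9.45 (mimic) and 6.52, 7.89 and 7.61 (control) FPKM, a rise of 0.49 ± 0.096 (adjusted p = 0.00782). NCAPH, the kleisin that closes the ring, stood at 19.9, 18.2 and 17.6 (mimic) and 15.1, 15.4 and 14.6 (control) FPKM, a rise of 0.29 ± 0.056 (adjusted p = 0.00755). In all 4 every mimic library was above every control, as in 30.9% of all genes.

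NCAPD2, the other HEAT-repeat subunit, was the most abundant condensin mRNA per kilobase, at 75.4, 82.6 and 85.03 FPKM in mimic libraries and 99.4, 93.9 and 95.7 FPKM in controls. It fell by 0.25 on the log2 scale (SE 0.05, adjusted p = 0.0106), with no overlap. SMC2 per NCAPD2 within a library was 0.140 ± 0.0107 in mimic libraries and 0.0693 ± 0.00424 in controls (SD, n = 3, exact permutation p = 0.1, the smallest possible), a ratio chosen after the values had been seen. SMC2 was above and NCAPD2 below every control in each mimic library, so this outcome was fixed and adds no evidence. NCAPD2 shares 486 exonic bases on the opposite strand with MRPL51, which had a log2 fold change of -0.82 (adjusted p = 9.72e-05) from 94.6 to 53.3 FPKM. The part of MRPL51 fragments in the NCAPD2 values was not tested. SMC4 overlaps IFT80 by 607 and TRIM59 by 1561 bases on the opposite strand (log2 fold changes 0.071 and 0.0072, adjusted p = 0.463 and 0.966), and NCAPG overlaps LCORL by 1631 (-0.12, adjusted p = 0.198).

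TOP2A, the topoisomerase that untangles sister chromatids, was the most abundant of the chromosome structure group. It stood at 82.4, 87.7 and 85.04 FPKM in mimic libraries and 130.5, 120.3 and 124 FPKM in controls. Mean FPKM was 1.47-fold lower with no overlap (log2 fold change -0.55 ± 0.044 (SE), adjusted p = 0.000246). MKI67, the proliferation marker Ki-67 that coats mitotic chromosomes, stood at 26.96, 29.9 and 29.1 FPKM in mimic libraries and 30.7, 30.1 and 27.2 FPKM in controls, with an interval of -0.18 to 0.11.

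In the spindle assembly group 2 of 6 mRNAs were higher and 0 lower by limma (2 and 1 at an unadjusted p under 0.05). The shares over all genes were 23.9% higher and 16.8% lower by limma. HMMR, a spindle and hyaluronan-binding protein, stood at 9.80, 10.4 and 9.45 FPKM in mimic libraries and 7.46, 6.23 and 6.24 FPKM in controls. It rose by 0.51 ± 0.078 (SE, log2 fold change, adjusted p = 0.00291). DLGAP5, a microtubule-bundling protein also called HURP, stood at 31.5, 33.1 and 29.3 (mimic) and 22.6, 21.4 and 23.3 (control) FPKM, a rise of 0.46 ± 0.058 (adjusted p = 0.00127), and neither mRNA overlapped between groups. TPX2, which activates AURKA and nucleates spindle microtubules, had the highest level of the 56 genes, 133, 137 and 133 FPKM in mimic libraries and 139, 133 and 139.5 FPKM in controls. Its interval was -0.12 to 0.055, and those of NUSAP1, a microtubule-bundling protein, and ASPM, a spindle pole protein, were -0.23 to 0.15 and -0.26 to 0.036. For CKAP2L, a spindle protein, the libraries did not overlap, at 12.8, 12.3 and 12.01 (mimic) and 13.7, 13.01 and 13.9 (control) FPKM, with an adjusted p = 0.0881. It passed the test when FPKM were scaled to equal sums (adjusted p = 0.0301) or medians (0.0381). It passed in no fit with a library left out, where its adjusted p was 0.0805 to 0.209. CKAP2L shares 474 exonic bases on the opposite strand with NT5DC4 (log2 fold change -0.064, adjusted p = 0.651).

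Of 3 cytokinesis mRNAs, ANLN was higher, and 0 were lower by limma (1 higher and 0 lower at an unadjusted p under 0.05). Higher calls made up 23.9% of all genes and lower calls 16.8%. ANLN encodes anillin, the scaffold of the contractile ring, and had the highest level of this group, 37.2, 40.5 and 35.98 FPKM in mimic libraries and 33.6, 31.9 and 32.8 FPKM in controls. The rise of 0.20 ± 0.052 (SE, log2 fold change, adjusted p = 0.0213) was lost without control replicate 2 (adjusted p = 0.0703) or 3 (0.0558) and under scaling to equal sums (0.0555) or medians (0.0590). ECT2, the exchange factor that activates RHOA at the cleavage plane, had an interval of -0.085 to 0.24. PRC1, which bundles the central spindle, was at 16.8, 18.7 and 18.2 (mimic) and 18.1, 16.8 and 11.7 (control) FPKM, with control replicate 3 low. PRC1 shares 3181 exonic bases on the same strand with AC068831.7 (5.73 and 8.43 FPKM, log2 fold change -0.47, adjusted p = 0.187), and ANLN shares 78 on the opposite strand with KIAA0895 (-0.033, adjusted p = 0.778).

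Among the 28 mRNAs that did not pass the test, values were of different kinds. For 14 of them the whole 95% interval lay within 0.25 of 0 on the log2 scale. These were CCNB2, NEK2, MELK, BUB3, ZWINT, CENPE, CENPF, CENPN, INCENP, MKI67, TPX2, NUSAP1, CKAP2L and ECT2. For others the libraries of a group disagreed. In 8 of the 56 the highest library was over 1.5 times the lowest within a group (CDC25B, AURKA, CENPA, CENPH, CENPM, SPC24, BIRC5 and PRC1), and CENPH was the only 1 of them that passed. Among genes whose mean FPKM was at least 1, 11.7% varied to that degree.

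Calls were also counted by level. The median of the genes' mean FPKM over 6 libraries was 19.8. Above it, 7 of 28 mRNAs were lower and 7 higher. At or below it, 2 were lower and 12 higher. Over all genes in the same range of levels, 24.9% were lower and 29.6% higher above that median, and 20.7% lower and 27.2% higher below it. Across the 56 genes, Pearson's r of log2(mean FPKM + 1) with the log2 fold change was -0.37, a description over genes measured in the same 6 libraries.

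**Figure D3:**
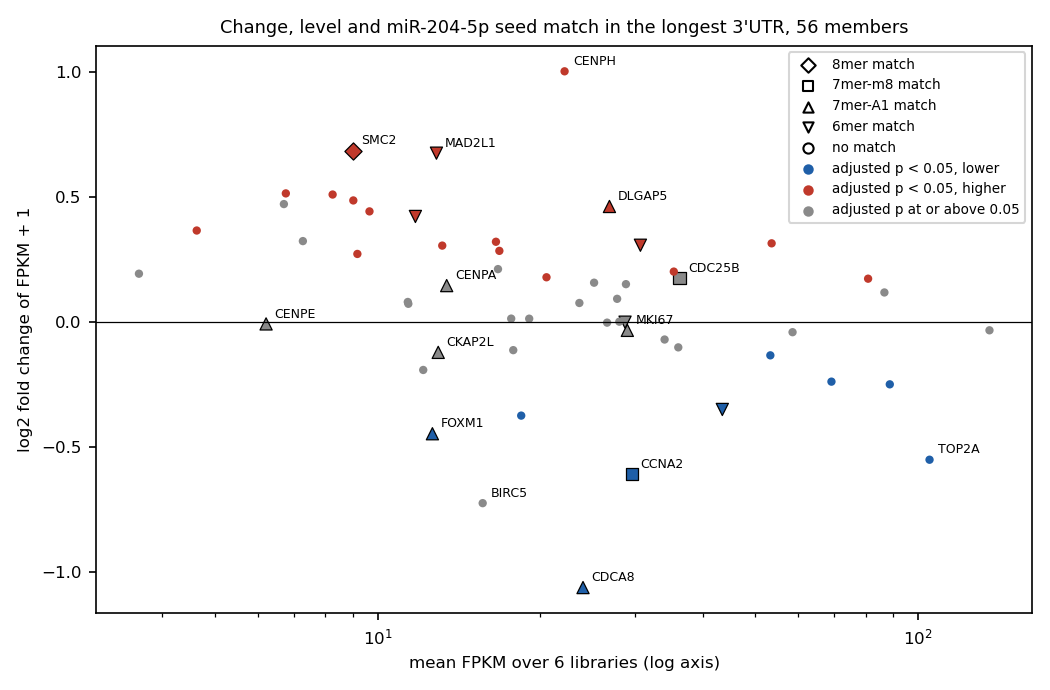
Log2 fold change of FPKM + 1 (vertical axis) against mean FPKM over 6 libraries (horizontal log axis) for the 56 genes, with symbol shape for the longest miR-204-5p seed match and colour for the limma call. CDCA8, CCNA2 and FOXM1 with matches of 7 bases lie below 0, while SMC2, with the 8mer, and DLGAP5 lie above it.

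Many of these genes share a promoter element that the choice of genes did not use. The cell cycle genes homology region (CHR) is bound by the MuvB core, and CCAAT boxes by NF-Y, both known from promoters of G2 and M phase genes. Promoters from 250 bases before to 50 after the start were at hand in RefSeq (GRCh38.p14) for 47 of the 56 genes, all but AURKA, FOXM1, BUB3, TTK, UBE2C, CENPH, CENPM, BIRC5 and TPX2. The CHR was searched as TTTGAA, a variant CHR as TTTAAA and the CCAAT box as CCAAT, on both strands. A CHR and a variant can share their end bases. A CHR match was present in 31 of 47 promoters (66%) and in 9.91% of 11461 promoters. A CCAAT box was present in 35 (74.5%, beside 36.1% of all), and both together in 24 (51.1%, beside 4.07%). In 25 of the 31 genes a CHR match began within 50 bases of the start, and 9 genes had at least 2 matches. The variant was found in 11 promoters (23.4%, beside 7.94%).

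The same element occurred at genes that were lower and at genes that were higher. Among the 31 genes with a CHR match, 4 were lower (PLK1, CDCA8, NCAPD2, TOP2A), 14 higher and 13 did not pass, with a median log2 fold change of 0.15. Among the 16 without, 3 were lower (CCNA2, AURKB, CDCA5), 3 higher (CCNB1, CENPK, NCAPH) and 10 did not pass, with a median of 0.12. Lower calls made up 16.8% and higher calls 23.9% of all genes, with or without the element. Windows of 30 bases, with the CHR in capitals and read along the gene's strand, are shown for 2 genes that were lower and 3 that were higher.
CDCA8: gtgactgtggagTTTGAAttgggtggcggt
PLK1: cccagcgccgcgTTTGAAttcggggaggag
BUB1B: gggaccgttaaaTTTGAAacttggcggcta
MAD2L1: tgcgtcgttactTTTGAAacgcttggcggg
SMC2: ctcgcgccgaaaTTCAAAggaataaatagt
These windows lie at chr1:37692481-37692510 (CDCA8, plus strand), chr16:23678848-23678877 (PLK1, plus), chr15:40161034-40161063 (BUB1B, plus), chr4:120066807-120066836 (MAD2L1, minus) and chr9:104094294-104094323 (SMC2, plus). In SMC2 the element lies on the other strand and reads TTCAAA. A match is a run of letters and no evidence of binding in these cells.

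**Figure D4:**
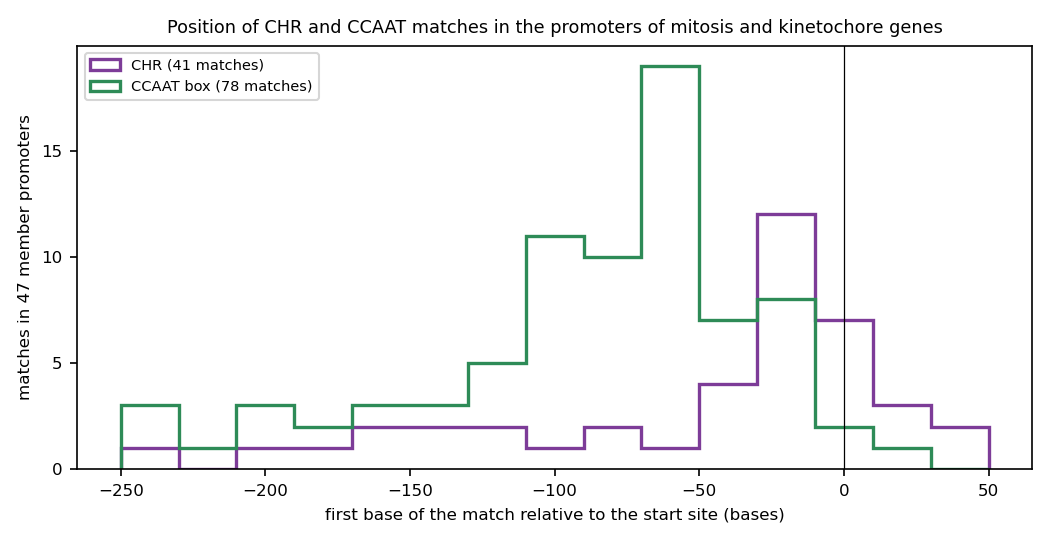
Number of matches (vertical axis) by the position of their first base relative to the start site (horizontal axis, bases) in the 47 promoters, for the CHR (41 matches) and the CCAAT box. CHR matches gather around the start, with a median position of -28, and CCAAT boxes further upstream.

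Other genes of cell division were listed by function, with earlier results of these data known. Of 185 measured, 23 were lower (12.4%) and 72 higher (38.9%), beside 16.8% and 23.9% of all genes. Without the replication genes, 23 of 151 were lower (15.2%) and 48 higher (31.8%), with a median log2 fold change of 0.075. Other kinetochore and centromere genes counted 16 of 31 higher (51.6%) and 0 lower by limma (20 and 0 at an unadjusted p under 0.05), with a median of 0.24. The higher count was 12 to 15 with a library left out. The largest log2 fold changes among those called were of ITGB3BP, which encodes CENP-R (0.78, adjusted p = 0.000630), TRIP13, the ATPase that disassembles checkpoint complexes (0.72, adjusted p = 0.000408), SKA2, a microtubule-binding subunit (0.70, adjusted p = 0.000221), and CENPQ (0.67, adjusted p = 0.00109). Mitotic kinesins, motors that move chromosomes and slide spindle microtubules, were higher in 8 of 12 (66.7%) and lower in 1, with a median of 0.26. With a library left out, 7 to 8 were higher and 1 was lower. KIF4A, which works on chromosome arms, rose to 19.9 ± 0.644 FPKM from 11.4 ± 0.538 FPKM (mean ± SD, n = 3, change 0.76 on the log2 scale, adjusted p = 0.000138), and KIF18A, KIF23 and KIF20B had log2 fold changes of 0.47, 0.44 and 0.43, each past the test.

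DNA replication genes, which peak before mitosis, were higher in 24 of 34 (70.6%) and lower in 0 by limma (25 and 0 at an unadjusted p under 0.05), with a median of 0.33. With a library left out, 19 to 23 were higher and 0 lower, and 23.9% of all genes were higher in the main fit. TYMS, thymidylate synthase, rose to 32.7 ± 1.48 FPKM from 16.1 ± 1.55 FPKM (mean ± SD, n = 3, change 0.98 on the log2 scale, adjusted p = 0.000195). POLE2, MCM3 and CDC45, of the polymerase and the replicative helicase, had log2 fold changes of 0.72, 0.57 and 0.56, each past the test. A CHR match was found in 1 of 31 promoters of these genes (3.23%), in 9 of 12 of the kinesins (75%) and in 7 of 26 of the other kinetochore genes (26.9%).

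The remaining lists held calls in both directions or few calls, where 23.9% of all genes were higher and 16.8% lower. Among APC/C subunits and regulators, 6 of 17 were higher and 3 lower (4 to 7 and 1 to 3 with a library left out), with the inhibitor FBXO5 at 0.38 (adjusted p = 0.00184), ANAPC5 at 0.27, ANAPC4 at 0.27 and CDC23 at -0.29, each past the test. Gamma-tubulin, augmin and centriole genes, which nucleate spindle microtubules, were higher in 11 of 27 and lower in 4 (8 to 11 and 2 to 3 with a library left out), led by HAUS7 (0.86), HAUS4 (0.75), TUBGCP5 (0.56) and TACC1 (0.56). Of the cohesin genes, 4 of 13 were lower and 1 higher, with a median of -0.11. The lower count was 2 without mimic replicate 1 or 3 or control replicate 2, and 3 without any other single library, with MAU2 (-0.21, adjusted p = 0.0226) and PDS5B (-0.20, adjusted p = 0.0473) the calls that were lost. SMC1A, a ring arm of cohesin, was the 1 higher, at 0.58 ± 0.038 (SE, adjusted p = 0.000132), while STAG1 and NIPBL were at -0.30 and -0.25, both past the test. Of 3 subunits specific to condensin II, 0 passed in limma, and 1 was lower at an unadjusted p under 0.05 and in the fit without mimic replicate 3.

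Timing regulators outside the 56 genes, such as WEE1-type kinases and mitotic phosphatases, were lower in 6 of 21 and higher in 2 (3 to 5 and 2 to 4 with a library left out). WEE1, the kinase that holds CDK1 inactive, was at -0.58 (adjusted p = 0.0160), a call that was lost without mimic replicate 2 or control replicate 1 or 2. PPP1CC, a catalytic subunit of protein phosphatase 1, was at -0.47 (adjusted p = 0.000362), and CKS1B, a CDK-binding protein, at 0.32 (adjusted p = 0.000864). PPP2R5D, a regulatory subunit of protein phosphatase 2A, was at -0.29 (adjusted p = 0.0219), a call that was lost without mimic replicate 1 or 3. MuvB, DREAM and MYBL2 regulators were lower in 3 of 15 and higher in 2 (2 to 3 and 1 to 2 with a library left out). The repressor-type E2F gene E2F5 was at 0.60, while LIN54, the MuvB subunit that contacts the CHR, was at -0.53 and the E2F partner TFDP1 at -0.34, with adjusted p = 0.000561, 0.00544 and 0.00331. RBL1, a pocket protein of DREAM, was at -0.25 (adjusted p = 0.0435), a call that held in 1 of the 6 fits with a library left out. Other cytokinesis genes gave 2 higher and 2 lower of 12. The higher were CHMP4C, of the abscission machinery, at 0.32 (adjusted p = 0.00795) and RACGAP1, of the central spindle, at 0.24 (adjusted p = 0.00726). The lower were CIT, which encodes citron kinase, at -0.32 (adjusted p = 0.0159) and the GTPase gene RHOA at -0.17 (adjusted p = 0.0242). CIT was lost without control replicate 1 or 2, and RHOA without mimic replicate 1 or 2 or control replicate 2 or 3.

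**Figure D5:**
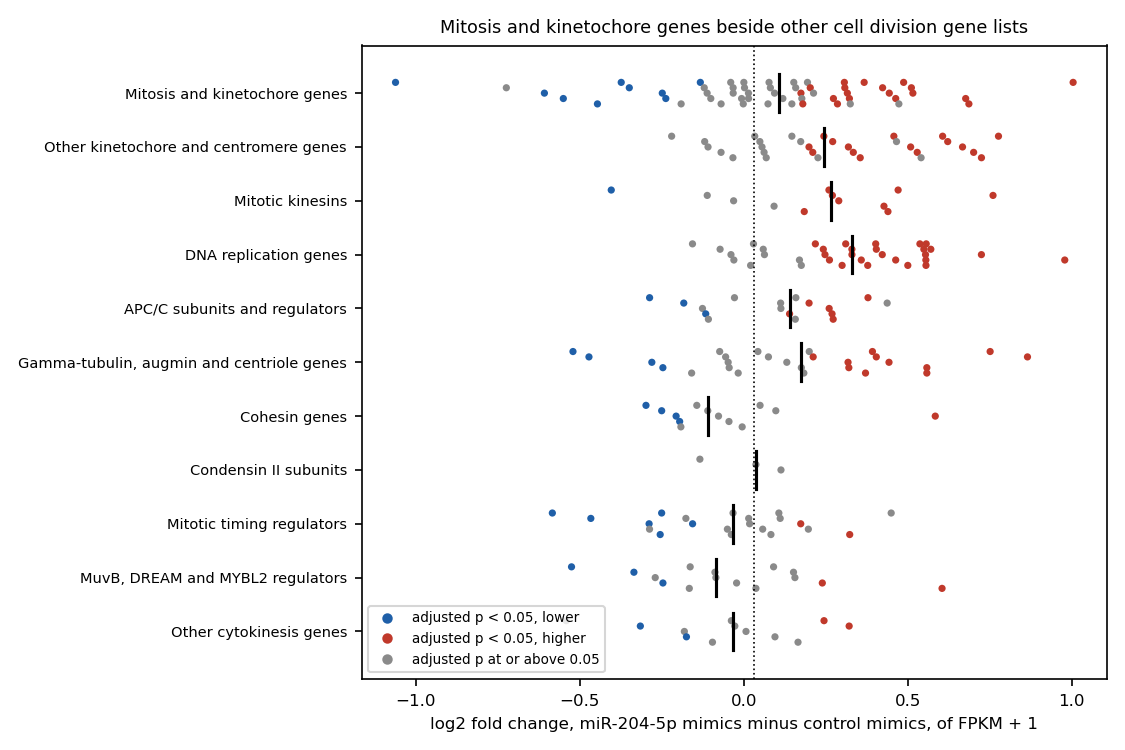
Log2 fold change of FPKM + 1 (horizontal axis, miR-204-5p mimics minus control mimics) of each gene in the 56 mitosis and kinetochore genes and in 10 other lists, coloured by the limma call, with a black bar at each list's median and a dotted line at the median of all genes (0.032). The medians of the replication, kinesin, other kinetochore, gamma-tubulin and APC/C lists lie to the right of the line. Those of the cohesin, MuvB, timing and other cytokinesis lists lie to its left, and that of condensin II lies close to it.

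Each gene is listed with 1 transcript. Whether the FPKM are of the gene or of that transcript is not given in the sources used here. Among the 56, the listed transcript is the longest in GENCODE 29 for 28, and under 50% of the longest for 7 (CDK1, ESPL1, NUF2, SPC24, CDCA5, SMC4 and HMMR). In these 7 it ranges from 10.7% of the longest for ESPL1 to 37.1% for CDK1, so their changes may be of a part of the gene's transcripts. Among the other 49, 8 were lower and 14 higher, closer to the 16.8% and 23.9% of all genes than the counts of the full 56. Exonic bases were shared with another measured gene in 16 of the 56. Among the 40 with no shared base 5 were lower and 14 higher, beside the same 16.8% and 23.9% of all genes.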

How the data were processed

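UM-SCC1 RNA was measured in 3 libraries of the miR-204-5p group and 3 of the control group, assigned by their titles. Total RNA was made into Illumina TruSeq libraries. The authors deposited FPKM for 14959 genes with 1 listed transcript each. The submitters' processing notes name HISAT2, StringTie and hg38, and the annotation and versions are not given in the sources used here. The deposited fold changes, p-values and FDR of the authors' own comparison (edgeR) were not used.

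FPKM are not counts, so log2(FPKM + 1) was tested in limma (version 3.58.1 under R 4.3.3) with lmFit and a trended eBayes, two-sided, without a filter or further scaling. Benjamini-Hochberg adjustment covered the 14959 genes, and the threshold was 0.05. The pseudocount of 1 understates changes of low genes. The script was tested on simulated data. Library depth was inferred from the smallest step of FPKM times length (22.5% to 26.8% of low values whole within 0.02, at most 8.18% at wrong steps), which is too few to recover counts. Transcripts, overlaps and 3' UTRs came from GENCODE 29 (GRCh38), miRNA and promoter sequences from RefSeq (GRCh38.p14). Python 3.11.15 with pandas 2.3.3 and scipy 1.17.1 served for other steps.

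The genes, their roles and the other lists were chosen with earlier results of these data known. Per-library values were given for called genes with the largest absolute log2 fold changes, up to 6 per role, and for the most abundant gene of each role, and up to 4 called genes were named per other list. Alternatives were other pseudocounts, a filter, 3 scalings, no trend, a replicate block, each library left out, other 3' UTR and motif rules and, added after seeing the data, 2 subsets of genes.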

Additional observations from a re-analysis of the deposited data

How the results depend on the processing

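Counts of lower and higher mRNAs among the 56 genes stayed within 1.5 times of 9 and 19 under other pseudocounts, a mean FPKM of at least 1, scaling to equal sums or medians, quantile normalization and no trend. They were 10 and 17 under either scaling, and 8 and 19 without a trend, where PLK1 was lost. With a library left out, 24 to 27 were called (lower 7 to 8, higher 17 to 19), and the 22 calls other than PLK1, AURKB, UBE2C, BUB1B, TTK and ANLN held in all 6 such fits. The median log2 fold change of 0.11 was 0.063 under equal sums, 0.055 under equal medians, 0.083 under quantile normalization, and 0.071 to 0.12 with a library left out. The median of all genes moved by less than 0.1 under each scaling. Among genes that share no exonic base with another measured gene, a subset added after seeing the data, 5 of 40 were lower. Lower calls made up 16.8% of all genes. Of the 185 other cell division genes, 12 to 18 were lower with a library left out, beside 23, and 61 higher and 31 lower under equal sums, beside 72 and 23. Over all genes, 5965 were called under equal sums and 6048 under equal medians, beside 6098. Their split into lower and higher under scaling is not given here, so the scaled counts cannot be set beside shares of all genes. Deviations of same-numbered libraries correlated at -0.032, -0.015 and -0.091, so the numbers were not taken to pair the libraries. With the replicate number as a block, 9 of the 56 were lower and 17 higher (ANLN, PLK1 and TTK lost, BIRC5 gained), and 13 of the other genes were lower. The sign changed for values near 0. Under equal sums, equal medians and quantile normalization, MELK was at -0.027, -0.036 and -0.0075, BUB3 at -0.043, -0.051 and -0.025, CENPF at -0.028, -0.036 and -0.0095, and INCENP at -0.040, -0.049 and -0.024. With a library left out, log2 fold changes were -0.32 to 0.029 for AURKA, -0.017 to 0.023 for BUB3, -0.034 to 0.019 for CENPE, -0.0031 to 0.037 for CENPF, -0.059 to 0.075 for INCENP, -0.050 to 0.057 for MELK, -0.084 to 0.0088 for MKI67, -0.025 to 0.027 for NEK2 and -0.11 to 0.039 for NUSAP1. Joining all 3' UTRs of a gene gave seed matches of 7 bases or more in 11 of the 56, and 1 had an 8mer. With the variant CHR included, 35 promoters had a match. The cause of these differences was not tested. Few inferred fragments limit SPC24 most, with 30.2 in its lowest library. That number rests on the length of its listed transcript, 27.3% of the longest, and would be higher with a longer one.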
